A study of Mus musculus with 18 samples.

Results

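The skeletal muscle genes described here are 39 genes of the contractile machinery and of the postsynaptic side of the neuromuscular junction, out of 26143 genes in the deposited table. They were taken by gene symbol, and all 39 symbols were found. RNA was sequenced in 18 mouse libraries in 4 groups. The E20/p53 group holds 6 tongue libraries with a PIK3CA allele carrying H1047R, a p53 allele carrying R172H and a K14-Cre transgene. The E20 group holds 6 tongue libraries with the PIK3CA H1047R allele, and the p53 group 3 tongue libraries heterozygous for p53 R172H. The WT group holds 3 wild type libraries, and these come from the esophagus, not the tongue.

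An LSL allele stays silent until Cre recombinase cuts out the loxP-flanked stop placed in front of it. K14-Cre expresses Cre from the keratin 14 promoter, which is active in basal cells of squamous epithelium. The labels name it for E20/p53 alone, and for E20 and p53 they name the LSL alleles without a Cre. Age, sex, and whether a library came from a tumour, a culture or a separate animal are not in the labels, so p-values measure only how far these libraries spread, and that spread may be technical. Each comparison with WT sets tongue against esophagus, so tissue and genotype cannot be told apart there.

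Skeletal muscle fibres contract when myosin thick filaments pull on actin thin filaments inside sarcomeres. A motor nerve releases acetylcholine, which opens a receptor built from alpha, beta and delta subunits with a gamma subunit in the embryo or an epsilon subunit in the adult. The membrane signal then releases calcium from internal stores, and calcium binding to troponin frees the thin filament for myosin. The tongue is rich in skeletal muscle. In the mouse, skeletal muscle also forms the outer wall of the esophagus.

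The libraries held about 14592000 to 18176000 counted reads and fell into 6 blocks of 3. E20 libraries 1 to 3 and 4 to 6 stood apart, as did E20/p53 libraries 1 to 3 and 4 to 6. Within a block, the 18 library pairs correlated across genes at a Pearson's r of 0.993 to 0.995, and the 18 pairs that join the blocks of 1 group at 0.953 to 0.978. The 117 pairs from different groups gave 0.935 to 0.98, so the blocks of a group were no more alike than many libraries of unlike groups. The labels do not name the blocks. They were not tested against each other, and counts in comparisons with E20 or E20/p53 are given with all libraries and without each block.

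All groups are labelled squamous epithelium, and the defining markers, summed as a list, went against that label in 3 blocks. Of 11 epithelial markers, 7 averaged at least 1 CPM, a read count scaled to a common library total in E20/p53 libraries 1 to 3, where the list summed to 1088 to 1099 CPM. In E20/p53 libraries 4 to 6 only 1 of 11 did, and the list summed to 4.15 to 5.2 CPM. In E20 libraries 1 to 3 the list summed to 118 to 137 CPM with 5 markers at that level, and in E20 libraries 4 to 6 to 3.32 to 3.6 CPM with 1. The sum was 5.8 to 7.7 CPM in p53 with 2 markers and 122 to 126 CPM in WT with 6. Most of the WT sum was Dsp, at 94.9 CPM on average. Krt5 averaged only 0.0784 CPM in WT, Krt14 13.4 CPM and Trp63 6.09 CPM, so single markers were low there too. Krt14, the keratin whose promoter drives the Cre, averaged 483 CPM in E20/p53 libraries 1 to 3 and 0.199 CPM in E20/p53 libraries 4 to 6. The blocks low in epithelial markers were high in fibroblast markers, whose list summed to 21421 to 23337 CPM in E20/p53 libraries 4 to 6, 18086 to 19394 CPM in E20 libraries 4 to 6 and 8660 to 9404 CPM in p53. That list summed to 260 to 290 CPM in E20/p53 libraries 1 to 3, 17323 to 19389 CPM in E20 libraries 1 to 3 and 1448 to 1570 CPM in WT.

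The muscle genes were highest in p53. For 38 of the 39 the p53 mean was the highest of the 6 block means, and the exception was Myom1, which was highest in WT. Every p53 library lay above all 15 other libraries for 35 of the 39, against 7.00% of all genes tested. The other 4 were Musk, Myh2, Tpm2 and Myom1. All 39 passed the filter on low values, but 6 of them (Cacna1s, Myh2, Myh7, Tcap, Ckm and Unc45b) passed through the p53 libraries alone, so being higher in p53 was built in for those. After p53, E20/p53 libraries 4 to 6 had the second highest mean for 31 genes, E20 libraries 4 to 6 for Chrnd, Chrng, Tnnt1 and Des, and WT for Tnnt2, Tnnt3, Tnnc2 and Tcap.

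As a median over the 39 genes, E20/p53 libraries 1 to 3 stood at 0.709% of the p53 mean and E20/p53 libraries 4 to 6 at 15.3%. The medians were 2.85% in E20 libraries 1 to 3, 2.62% in E20 libraries 4 to 6 and 1.19% in WT. In E20/p53 libraries 1 to 3, 11 genes had no read in any of the 3 libraries, and only Chrnb1 and Tpm2 averaged at least 10 CPM. In p53, 29 genes reached that level and none was at 0. These are bulk samples, so fewer muscle cells and less RNA per cell cannot be told apart.

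**Figure D1:**
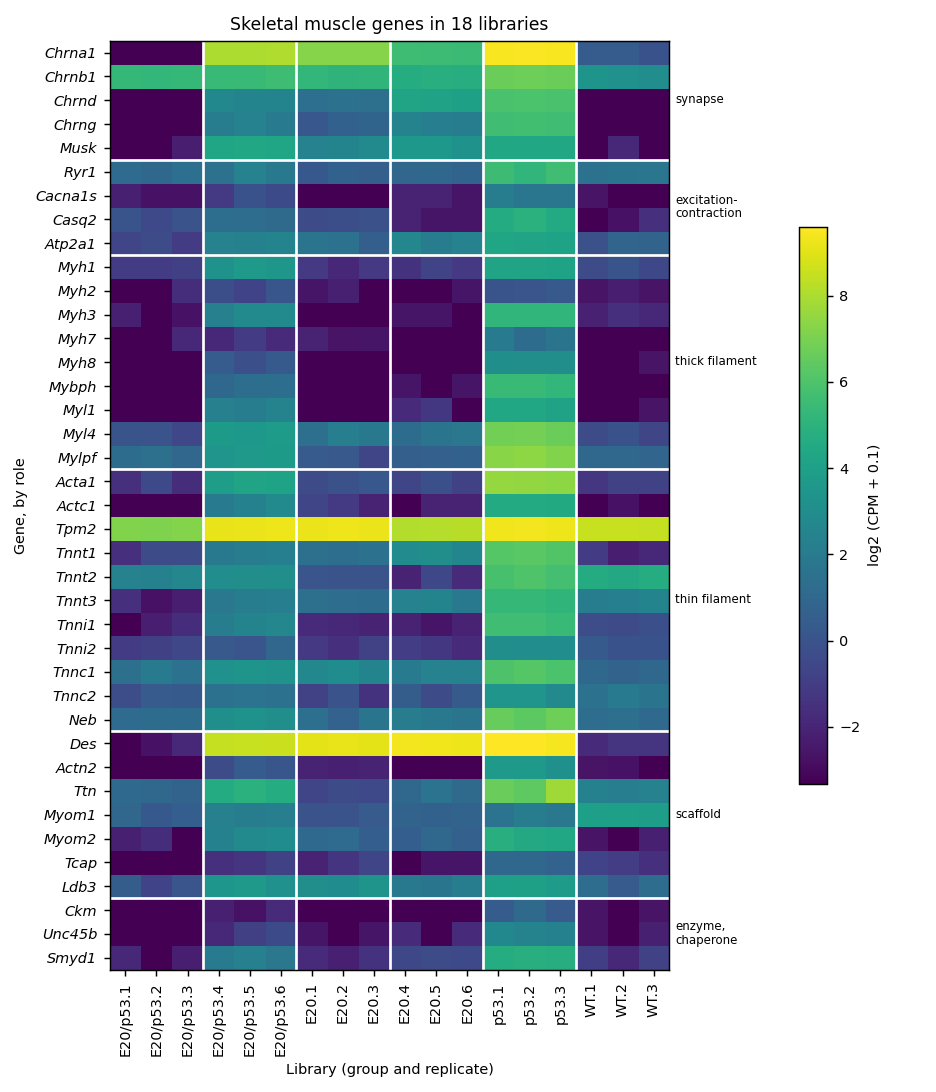
Level of each of the 39 genes (rows, grouped by role) in each of the 18 libraries (columns), as log2 of CPM plus 0.1. The 3 p53 columns are the brightest in all but a few rows, Des and Tpm2 are bright in most tongue columns, and E20/p53 libraries 1 to 3 are the darkest, with Chrnb1 and Tpm2 alone at 10 CPM or more on average.

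The receptor and its organiser come first. Chrna1 encodes the alpha subunit that binds acetylcholine, Chrnb1, Chrnd and Chrng encode the beta, delta and embryonic gamma subunits, and Musk encodes the kinase that clusters the receptor under the nerve ending. The 250 bases upstream of the RefSeq start of 3 of these genes are shown with the muscle E-box CAGCTG in capitals, because this palindromic motif, bound in myoblasts by factors such as MyoD, was more frequent upstream of the muscle genes than of genes at large. The sequences are from RefSeq on GRCm38.p6, the assembly of mm10, on the strand of the gene, at chr2:73580339-73580588 (minus), chr1:87205561-87205810 (plus) and chr4:58285712-58285961 (plus). In GENCODE M21 Chrng begins further upstream, so its window lies inside that gene model.
Chrna1: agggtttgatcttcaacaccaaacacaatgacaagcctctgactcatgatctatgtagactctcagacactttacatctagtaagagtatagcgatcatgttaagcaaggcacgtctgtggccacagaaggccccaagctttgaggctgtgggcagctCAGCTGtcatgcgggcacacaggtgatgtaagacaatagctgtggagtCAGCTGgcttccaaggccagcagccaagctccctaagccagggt
Chrng: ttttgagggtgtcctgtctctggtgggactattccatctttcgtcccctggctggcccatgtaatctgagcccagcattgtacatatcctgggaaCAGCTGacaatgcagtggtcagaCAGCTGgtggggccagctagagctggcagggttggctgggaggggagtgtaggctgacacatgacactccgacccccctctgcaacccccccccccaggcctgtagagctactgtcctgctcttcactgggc
Musk: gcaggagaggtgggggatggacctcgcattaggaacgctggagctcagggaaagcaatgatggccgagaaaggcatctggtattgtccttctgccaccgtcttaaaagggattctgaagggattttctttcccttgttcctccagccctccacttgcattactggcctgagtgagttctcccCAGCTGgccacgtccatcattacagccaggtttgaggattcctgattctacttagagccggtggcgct

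CAGCTG occurred in this window in 14 of the 33 muscle genes with a RefSeq promoter entry, 42.4%, against 14.7% of 27025 genes. The 14 were Chrna1, Chrng, Musk, Cacna1s, Atp2a1, Mybph, Myl1, Mylpf, Acta1, Tpm2, Tnnt2, Tnni1, Des and Ckm. It reads the same on both strands, so 1 search covers both. A match describes the letters only and is no evidence of binding.

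Chrna1 was at 0 reads in all 3 of E20/p53 libraries 1 to 3 and at 256, 262 and 264 CPM in E20/p53 libraries 4 to 6. It stood at 153, 154 and 151 CPM in E20 libraries 1 to 3 and at 48.5, 45.8 and 44.2 CPM in E20 libraries 4 to 6. In p53 it reached 706, 745 and 712 CPM, against 1.24, 1.26 and 0.842 CPM in WT. The 6 blocks did not overlap, and the alpha subunit was well above WT in each tongue block except E20/p53 libraries 1 to 3.

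Chrnb1 varied least among the receptor genes. It stood at 39, 37 and 38.9 CPM in E20/p53 libraries 1 to 3 and at 43.1, 43.4 and 47.7 CPM in E20/p53 libraries 4 to 6. E20 libraries 1 to 3 had 37.6, 33.8 and 35.4 CPM, E20 libraries 4 to 6 had 26, 27.4 and 26.4 CPM, p53 had 104, 107 and 103 CPM, and WT had 10.3, 9.31 and 8.06 CPM. It was the only receptor gene with reads in E20/p53 libraries 1 to 3 and the only one above 2 CPM in WT.

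Chrnd and Chrng had no reads in E20/p53 libraries 1 to 3 or in WT. Chrnd was at 6.43, 5.51 and 5.53 CPM in E20/p53 libraries 4 to 6, at 2.52, 2.86 and 2.65 CPM in E20 libraries 1 to 3 with 18.3, 17.4 and 16 CPM in libraries 4 to 6, and at 58.5, 60.7 and 60 CPM in p53. Chrng was at 4.17, 5.17 and 3.82 CPM in E20/p53 libraries 4 to 6. E20 held 1.02, 1.52 and 1.7 CPM of Chrng in libraries 1 to 3 and 5.42, 4.54 and 4.39 CPM in libraries 4 to 6, against 50, 51.8 and 50 CPM in p53. The delta subunit was thus higher in E20 libraries 4 to 6 than in libraries 1 to 3, the reverse of the alpha subunit. Chrne, the adult epsilon subunit and no member of the 39, held at most 4 reads in any block. Only Chrng and Chrne tell the embryonic form from the adult one, as the other subunits are shared. Chrng exceeded Chrne in p53, E20 and E20/p53 libraries 4 to 6. WT had no read of Chrng and 4 of Chrne, and E20/p53 libraries 1 to 3 had none of Chrng, so the form could not be told there.

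Musk separated the blocks differently from the subunits. It averaged 19.8 ± 0.804 CPM in E20/p53 libraries 4 to 6 and 21 ± 0.534 CPM in p53 (SD, n = 3 each), and the libraries of these blocks overlapped. E20 held 5.18, 5.67 and 6.94 CPM in libraries 1 to 3 and 11.8, 11.7 and 9.96 CPM in libraries 4 to 6. In E20/p53 libraries 1 to 3 and in WT the highest values were 0.112 and 0.172 CPM.

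**Figure D2:**
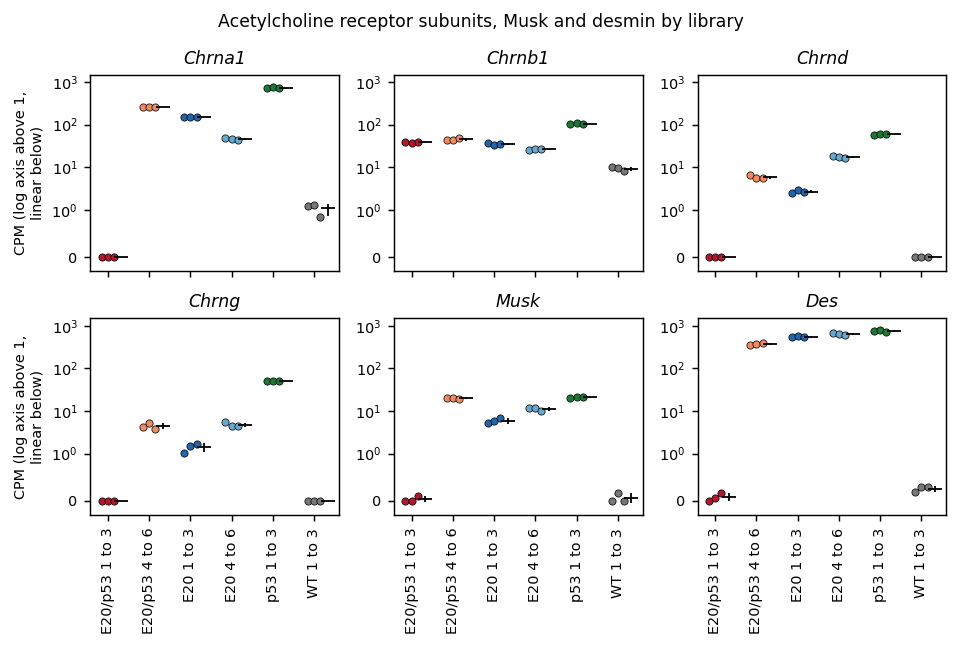
CPM of the 4 acetylcholine receptor subunit genes, Musk and Des in each library (points), with the mean and SD of each block of 3 beside them, on an axis that is logarithmic above 1 and linear below. Points of a block lie close together, p53 is at or near the top in each panel, and E20/p53 libraries 1 to 3 are at or near 0 for all but Chrnb1.

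As shares of the 4 subunits, computed per kb of exon, Chrna1 made up 74.4% ± 0.535 in E20/p53 libraries 4 to 6, 69.6% ± 0.961 in E20 libraries 1 to 3 and 69.7% ± 0.207 in p53 (SD, n = 3 each). In E20 libraries 4 to 6 Chrna1 and Chrnb1 each made up 38.4%, and Chrnd 19.1% ± 0.684, against 7.7% ± 0.119 for Chrnd in p53. The share of Chrng was 1.32% ± 0.221 in E20/p53 libraries 4 to 6 and 5.15% ± 0.0329 in p53. Subunit make-up thus differed between tongue blocks by more than the spread within them.

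Excitation-contraction coupling is represented by Cacna1s, the voltage sensor of the muscle membrane, Ryr1, the calcium release channel, Casq2, a calcium store protein, and Atp2a1, the pump that returns calcium to the store in fast fibres. Ryr1 held 2.16, 1.96 and 2.53 CPM in E20/p53 libraries 1 to 3 and 2.86, 5.23 and 3.62 CPM in E20/p53 libraries 4 to 6. It held 1.09 to 1.52 CPM in E20 libraries 1 to 3, 1.72 to 1.94 CPM in E20 libraries 4 to 6, 45.7, 36.4 and 50.5 CPM in p53 and 2.79, 2.99 and 3.31 CPM in WT. Every p53 library was above every other library, and E20 was the lowest group.

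Casq2 held 0.616 to 0.925 CPM in E20/p53 libraries 1 to 3 and 2.11 to 2.44 CPM in E20/p53 libraries 4 to 6. E20 held 0.682 to 0.817 CPM in libraries 1 to 3 and 0.0667 to 0.135 CPM in libraries 4 to 6, against 25, 30 and 24.2 CPM in p53. Cacna1s did not exceed 0.852 CPM in E20/p53 or 0.135 CPM in E20, against 4.42, 3.32 and 3.28 CPM in p53. Atp2a1 was the gene of this role that E20 retained most: E20 libraries 4 to 6 held 6.23, 4.2 and 5.22 CPM, 28.1% of the p53 mean. E20/p53 libraries 4 to 6 held 5.18, 5.06 and 5.53 CPM, and p53 18 to 19.4 CPM. Atp2a1 shares 763 exon bases with Rabep2 on the opposite strand. The kit keeps strand, but whether counting used it is not given in the sources used here, so reads of such overlapping genes cannot be told apart.

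Of the thick filament, Myh3 and Myh8 encode the embryonic and neonatal myosin heavy chains, Myh1 and Myh2 adult fast chains, and Myh7 the slow chain shared with the heart. Myh3 was at 4.82, 6.88 and 6.91 CPM in E20/p53 libraries 4 to 6, against 36.7, 35.9 and 35.7 CPM in p53. Its highest value was 0.123 CPM in E20/p53 libraries 1 to 3, 0.0677 CPM in E20 and 0.23 CPM in WT. Myh8 followed the same order, with 1.25, 0.795 and 1.18 CPM in E20/p53 libraries 4 to 6, no read in E20 and 8.64, 8.21 and 8.32 CPM in p53.

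Myh1 differed less between these 2 blocks. It was at 9.89 to 12 CPM in E20/p53 libraries 4 to 6 and at 18.7, 18.6 and 18 CPM in p53, and did not exceed 0.92 CPM in the other blocks. Per kb of exon, Myh3 made up 33.9% ± 2.73 of the 5 heavy chains in E20/p53 libraries 4 to 6 and 59.1% ± 0.42 in p53, while Myh1 made up 58.4% ± 1.98 in E20/p53 libraries 4 to 6 and 28.8% ± 0.57 in p53 (SD, n = 3 each). The leading heavy chain was thus the adult fast one in E20/p53 libraries 4 to 6 and the embryonic one in p53. Myh1, Myh2, Myh3 and Myh8 lie next to each other on chromosome 11 and are near-identical in parts, so reads split between them are uncertain. The other 4 blocks had too few heavy chain reads, under 100, for shares.

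**Figure D3:**
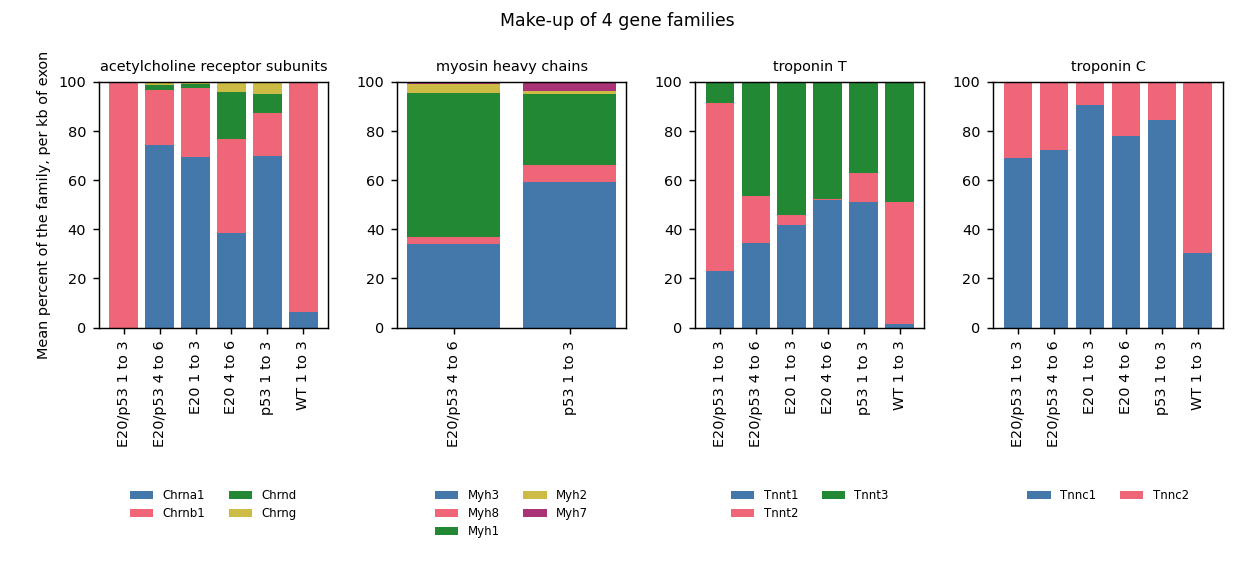
Make-up of 4 gene families in each block, as the mean percent of the family's CPM per kb of exon over 3 libraries. Exon length joins all exons annotated for a gene, so shares within a block depend on it. Blocks with under 100 reads in a family are left out. Chrna1 leads in 3 tongue blocks and Chrnb1 in WT, Myh1 leads in E20/p53 libraries 4 to 6 and Myh3 in p53, and Tnnt1 is nearly absent from WT.

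Among the light chains and myosin partners, Mylpf encodes the fast regulatory light chain, Myl1 and Myl4 the fast and the embryonic essential light chains, and Mybph a myosin-binding protein. Mylpf held 1.85 to 2.63 CPM in E20/p53 libraries 1 to 3, 10.5, 12.5 and 13.2 CPM in E20/p53 libraries 4 to 6 and 0.545 to 1.51 CPM in E20. It reached 157, 168 and 144 CPM in p53, against 1.74 to 1.92 CPM in WT. Mybph was at 1.97, 2.44 and 2.44 CPM in E20/p53 libraries 4 to 6 and at 43.5, 41.6 and 37.9 CPM in p53, and had at most 1 read a library in the other blocks. Mybph shares 1162 exon bases with Adora1 on the opposite strand. Myl4 was at 11.7 to 13.5 CPM in E20/p53 libraries 4 to 6 and 2.3 to 4.5 CPM in E20, against 114, 118 and 104 CPM in p53. As a median over the 9 thick filament genes, E20/p53 libraries 4 to 6 stood at 12.8% of the p53 mean, E20 libraries 1 to 3 at 0.615% and E20 libraries 4 to 6 at 0.9%. For the 5 synapse genes these medians were 36.1%, 21.2% and 25.5%.

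The windows upstream of Mylpf, a sarcomere gene near 0 in E20, and of Des, which E20 retained (below), both held CAGCTG, shown in capitals. Acta1 held a CArG box, the element bound by serum response factor, which its capitals mark, and also CAGCTG, left in lower case there. They lie at chr7:127211358-127211607 (plus), chr1:75360042-75360291 (plus) and chr8:123894776-123895025 (minus) of the same build. The Mylpf window, too, lies inside the longer GENCODE M21 gene model.
Mylpf: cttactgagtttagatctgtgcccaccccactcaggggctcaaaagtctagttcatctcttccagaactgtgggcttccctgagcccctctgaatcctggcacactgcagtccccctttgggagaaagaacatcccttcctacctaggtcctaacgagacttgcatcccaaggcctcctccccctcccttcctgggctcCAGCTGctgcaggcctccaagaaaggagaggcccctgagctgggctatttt
Des: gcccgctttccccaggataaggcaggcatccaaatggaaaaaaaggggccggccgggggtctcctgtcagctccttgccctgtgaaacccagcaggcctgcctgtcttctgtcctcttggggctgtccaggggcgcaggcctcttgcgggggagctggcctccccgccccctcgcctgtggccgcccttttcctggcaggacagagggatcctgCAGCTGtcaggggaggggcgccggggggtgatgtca
Acta1: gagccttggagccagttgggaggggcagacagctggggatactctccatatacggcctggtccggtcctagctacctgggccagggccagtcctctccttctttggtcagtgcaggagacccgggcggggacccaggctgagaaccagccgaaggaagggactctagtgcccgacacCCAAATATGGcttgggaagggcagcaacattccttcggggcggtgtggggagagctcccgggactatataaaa

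The CArG box occurred upstream of 4 of 33 muscle genes, 12.1%, against 1.62% of 27025 genes, and the 4 were Acta1, Actc1, Myom1 and Ldb3. CAGCTG was found both in a gene that E20 retained and in one near 0 there, as Des and Mylpf show.

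Of the thin filament, Acta1 and Actc1 encode skeletal and cardiac alpha actin, Neb the giant protein nebulin that spans the filament, and Tpm2 the tropomyosin of slow fibres that other cells also make. Acta1 was at 15.2, 18.5 and 18.2 CPM in E20/p53 libraries 4 to 6, against 186, 184 and 168 CPM in p53. Its highest value was 0.616 CPM in E20/p53 libraries 1 to 3, 1.02 CPM in E20 and 0.481 CPM in WT. Actc1 had 0 reads in E20/p53 libraries 1 to 3, 4.11, 5.06 and 7.04 CPM in E20/p53 libraries 4 to 6 and 22.9 to 23.8 CPM in p53. The actin genes are near-identical in coding sequence, so reads split between them are uncertain. The smooth muscle gene Acta2 averaged 395 CPM in E20/p53 libraries 1 to 3 and 2306 CPM in p53. It reached 3200 CPM in E20/p53 libraries 4 to 6.

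Neb held 8.36 to 9.6 CPM in E20/p53 libraries 4 to 6 and 1.58 to 4.33 CPM in E20, against 97.3, 82.1 and 108 CPM in p53. Tpm2 was high everywhere: 137 to 146 CPM in E20/p53 libraries 1 to 3, 587 to 623 in E20/p53 libraries 4 to 6, 588 to 627 in E20 libraries 1 to 3, 280 to 294 in E20 libraries 4 to 6, 610 to 673 in p53 and 353 to 365 in WT. Tpm2 and Des together carried most of the summed CPM of the 39 genes in both E20 blocks. That sum was 1393 ± 51 CPM in E20 libraries 1 to 3 and 1079 ± 23.5 CPM in E20 libraries 4 to 6, and without Tpm2 and Des it was 238 and 151 CPM. In p53 the sum was 3653 ± 69.2 CPM, and 2269 CPM without them (SD, n = 3 each).

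The troponins showed which forms each block held. Troponin T anchors the complex to tropomyosin, troponin I inhibits, and troponin C binds calcium. Tnnt1 (slow) held 2.45 to 2.79 CPM in E20 libraries 1 to 3 and 7.45, 8.21 and 5.97 CPM in E20 libraries 4 to 6. It was at 72, 77.5 and 68.8 CPM in p53 and at 0.115 to 0.372 CPM in WT. Tnnt2 (cardiac and embryonic) was at 5.04 to 6.24 CPM in E20/p53 libraries 1 to 3, 7.86 to 8.35 CPM in E20/p53 libraries 4 to 6 and 0.135 to 0.954 CPM in E20. It was at 56.8, 65.5 and 54 CPM in p53 and at 24.3, 22.3 and 25.4 CPM in WT. Per kb of exon, Tnnt2 made up 68.4% ± 2.89 of troponin T in E20/p53 libraries 1 to 3, 0.617% ± 0.407 in E20 libraries 4 to 6, 11.7% ± 0.507 in p53 and 49.6% ± 2.45 in WT (SD, n = 3 each), so the leading form differed between blocks. The size of a share depends on the exon length, which joins all exons annotated for a gene. It was 7752 bases for Tnnt2, 2204 for Tnnt1 and 1583 for Tnnt3, which lowers the share of Tnnt2. Unscaled, p53 averaged 58.8 CPM of Tnnt2, 72.8 CPM of Tnnt1 and 38 CPM of Tnnt3.

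Tnnt3, the fast form, was at 0.056 to 0.247 CPM in E20/p53 libraries 1 to 3, at 38.8, 39.6 and 35.5 CPM in p53 and at 4.28, 4.6 and 5.65 CPM in WT. Neither Tnni1 (slow) nor Tnni2 (fast) exceeded 0.476 CPM in E20, against 42.3 to 50.4 CPM of Tnni1 and 7.88 to 8.3 CPM of Tnni2 in p53. Tnnc1, of slow and cardiac muscle, was at 3.93 to 7.77 CPM in E20, 61.6 to 72.8 CPM in p53 and 1.61 to 1.92 CPM in WT. These forms were all highest in p53. The fast Tnnc2 was at 7 to 10.5 CPM in p53 and 2.79 to 3.85 CPM in WT. Per kb, Tnnc1 made up 84.6% ± 2.34 of troponin C in p53 and 30.3% ± 5.33 in WT (SD, n = 3 each), so the main form differed. Tnnc2 shares 592 of its 800 exon bases with Ube2c, a mitotic gene on the opposite strand, so its reads are uncertain.

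Of the scaffold genes, Des encodes desmin, the intermediate filament that links sarcomeres and is made from the myoblast stage on. Des was at 0, 0.056 and 0.169 CPM in E20/p53 libraries 1 to 3 and at 353, 365 and 385 CPM in E20/p53 libraries 4 to 6. It held 533, 587 and 544 CPM in E20 libraries 1 to 3 and 662, 643 and 615 CPM in E20 libraries 4 to 6. It was at 752, 778 and 699 CPM in p53 and at 0.186, 0.287 and 0.301 CPM in WT. Des was the gene that E20 retained most beside Tpm2, at 74.6% and 86.2% of the p53 mean in its 2 blocks, where the thick filament genes did not exceed 6.07%.

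Ttn encodes titin, the spring of the sarcomere, Actn2 the Z-disc actinin, Ldb3 a Z-disc adaptor, Tcap the titin cap, and Myom1 and Myom2 the proteins that tie thick filaments at the M-line. Ttn was at 24.8, 30.1 and 25.5 CPM in E20/p53 libraries 4 to 6, at 0.545 to 2.94 CPM in E20, at 102, 83.9 and 218 CPM in p53 and at 4.48 to 5.17 CPM in WT. p53 library 3, the highest for Ttn, also held 34840.98 CPM of the ribosomal RNA gene Rn45s, and p53 libraries 1 and 2 held 1857.67 and 959.95 CPM. The part of ribosomal RNA in that value of Ttn was not tested. Actn2 had 0 reads in E20/p53 libraries 1 to 3 and E20 libraries 4 to 6, at most 1.25 CPM in E20/p53 libraries 4 to 6 and 12.3, 12.7 and 9.01 CPM in p53. Ldb3 was retained in E20 libraries 1 to 3, at 7.71 to 10.1 CPM, and in E20/p53 libraries 4 to 6, at 9.22 to 12.2 CPM, against 13.9 to 16.3 CPM in p53.

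Myom1 ran the other way. It was at 1.06 to 1.85 CPM in E20/p53 libraries 1 to 3, at 4.82, 4.32 and 4.54 CPM in E20/p53 libraries 4 to 6 and at 0.876 to 1.65 CPM in E20. In p53 it was at 2.95, 4.24 and 3.53 CPM, against 15.8, 15.5 and 15.2 CPM in WT. Its paralog Myom2 was at 5 to 7.57 CPM in E20/p53 libraries 4 to 6, 1.35 to 2.22 CPM in E20, 27, 22.2 and 20.9 CPM in p53 and at most 0.12 CPM in WT. Myom1 shares 207 exon bases with Myl12a on the opposite strand.

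The remaining 3 genes are Ckm, the muscle creatine kinase that buffers energy, Unc45b, a chaperone that folds myosin, and Smyd1, a methyltransferase needed for sarcomere assembly. Smyd1 was at 3.93, 4.83 and 3.42 CPM in E20/p53 libraries 4 to 6, against 25.7, 27.6 and 26.4 CPM in p53. It did not exceed 0.185 CPM in E20/p53 libraries 1 to 3, 0.667 CPM in E20 or 0.481 CPM in WT. Unc45b was at most 0.658 CPM in E20/p53 and 0.206 CPM in E20, against 5.1 to 6.49 CPM in p53. Ckm was low throughout, with no read in E20 and 1.27, 2.15 and 1.2 CPM in p53.

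**Figure D4:**
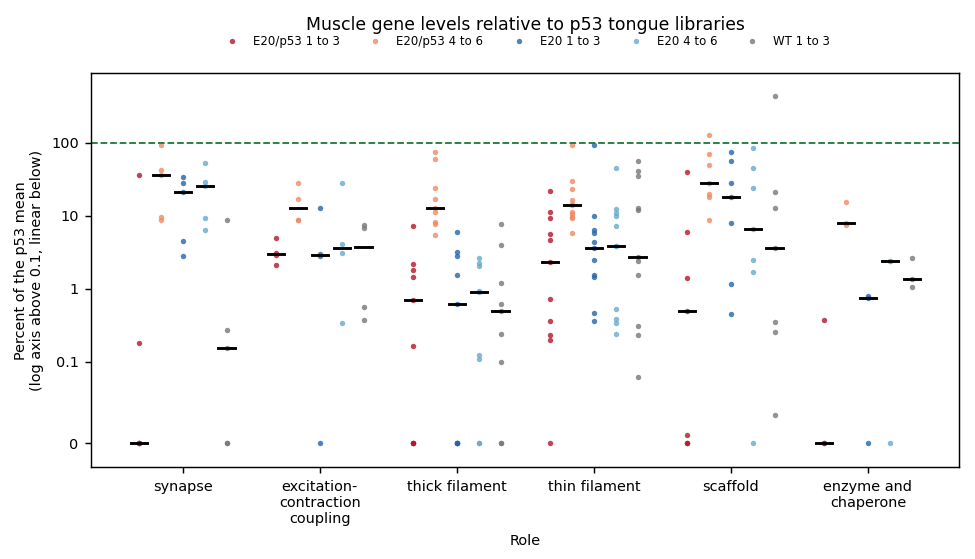
Mean level of each gene in 5 blocks as a percent of its p53 mean (dashed line, 100), by role, with the median of the role as a black bar, on an axis that is logarithmic above 0.1 and linear below. Synapse genes lie higher in both E20 blocks, at medians of 21.2% and 25.5%, than thick filament genes, at 0.615% and 0.9%, and the points above the line are Myom1, in WT and in E20/p53 libraries 4 to 6.

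In E20/p53 against p53, both from the tongue, the muscle genes were lower. The groups differ in the PIK3CA allele and, by their labels, in K14-Cre, and these cannot be told apart. limma called 33 of the 39 lower and 0 higher, where it called 12.9% of all genes lower, 12.9% higher and 25.8% in either direction. No gene of the 39 was higher at an unadjusted p under 0.05 in limma, and voom called 0 higher too. All E20/p53 libraries lay below all p53 libraries for 35 genes and above for 0, against 16.6% and 15.9% of all genes. The median log2 difference was -4.39, against 0.02 over all 15235 genes tested. The 6 not called were Musk, Myh2, Tpm2, Des, Myom1 and Ldb3. Leaving aside the 6 genes that passed the filter through p53 alone, 28 of 33 were lower and 0 higher. Of genes without overlap between the groups, Ryr1 was at 3.06 ± 1.21 CPM in E20/p53 and 44.2 ± 7.21 CPM in p53 (SD, n = 6 and 3; log2 -3.89, SE 0.26, adjusted p = 3.7e-08). Chrnb1 had a log2 difference of -1.34 (SE 0.12, adjusted p = 1.5e-06), Neb of -4.39 (SE 0.48, adjusted p = 7.4e-06), Tnnc1 of -3.60 (SE 0.40, adjusted p = 8.7e-06) and Mylpf of -4.89 (SE 0.57, adjusted p = 1.4e-05). Actn2 fell as well (log2 -5.53, SE 0.99, adjusted p = 0.00072).

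The call against p53 did not rest on 1 E20/p53 block. Without E20/p53 libraries 1 to 3 limma called 33 lower, at a median log2 of -2.70 with 34.2% of all genes called in either direction. Without libraries 4 to 6 it called 39 lower, at -6.09 with 63.9% of all genes called. 32 genes were lower with all libraries and in both of these fits. When each block was averaged to 1 value, limma called 0 of the 39 and also 0 of all 15235 genes. In that fit 16 of the 39 had an unadjusted p under 0.05. For this and the other comparisons, the share of all genes at that p is not given here.

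E20 against p53 gave the same number of lower genes. limma called 33 of 39 lower and 0 higher, where 16.4% of all genes were lower, 14.5% higher and 30.9% either, and 0 of the 39 were higher at an unadjusted p under 0.05 in limma or called higher by voom. All E20 libraries lay below all p53 libraries for 38 genes and above for 0, against 23.8% and 21.7% of all genes. The median log2 difference was -4.75, or -4.95 if genes without reads in a group are placed at their bound, against -0.01 over all genes. The 6 not called were Chrna1, Chrnd, Musk, Tpm2, Des and Ldb3. Leaving aside the 6 genes that passed the filter through p53 alone, 27 of 33 were lower and 0 higher. With the 2 groups alone limma called 38 of 39 lower, all but Tpm2, and these held all 5 synapse genes. The share of all genes called in that fit is not given here, so the rise from 33 is not read as particular to these genes. No difference between roles was tested. Ryr1 was at 1.59 ± 0.307 CPM in E20 and 44.2 ± 7.21 CPM in p53 (SD, n = 6 and 3; log2 -4.75, SE 0.26, adjusted p = 3e-09). Tnnt2 (log2 -6.69, SE 0.43, adjusted p = 1.6e-08), Chrnb1 (log2 -1.76, SE 0.12, adjusted p = 4.6e-08), Mylpf (log2 -7.00, SE 0.57, adjusted p = 2.3e-07) and Tnni2 (log2 -4.39, SE 0.40, adjusted p = 7e-07) fell. Ttn was at 1.47 ± 0.995 CPM in E20 and 135 ± 72.7 CPM in p53 (log2 -6.61, SE 0.93, adjusted p = 5.7e-05), and at log2 -6.19 without p53 library 3.

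Myh8 had no read in E20, so it was at least 254-fold lower than in p53, against a floor of 3 reads over the group that covers counting error only. Without E20 libraries 1 to 3 limma called 28 of 39 lower with 40.6% of all genes called, and without libraries 4 to 6 it called 32 with 29% of all genes called. The 28 called in both fits were also called with all libraries. With the 6 block means, limma called 0 of the 39 and 0 of all 15235 genes, and 23 of the 39 had an unadjusted p under 0.05. Both comparisons use the same p53 libraries, so they are not independent.

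E20/p53 and E20 differ in the p53 allele and, by their labels, in K14-Cre, which cannot be told apart. Here the 2 blocks of E20/p53 moved the count in opposite directions. With all libraries limma called 12 of 39 higher and 2 lower, where 23.0% of all genes were higher, 19.6% lower and 42.6% either, at a median log2 of 0.81 (0.84 if genes without reads in a group are placed at their bound) against 0.05 over all genes. The libraries of the groups did not overlap for 3 higher genes and 1 lower gene, against 11.3% and 11.2% of all genes. Without E20/p53 libraries 1 to 3 it called 31 higher and Des lower, at a median of 1.8 with 52.9% of all genes called. Without E20/p53 libraries 4 to 6 it called 4 higher (Chrnb1, Mylpf, Ryr1 and Tnnt2) and 17 lower, at a median of -0.88 with 65.1% of all genes called. Any 1 E20/p53 library moved the lower count too, to 1 without library 1, 2 or 3 and to 6 without library 4, 5 or 6, and it was 1 without E20 library 4, 5 or 6.

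By role, all 9 thick filament genes and 3 of the 5 synapse genes (Chrna1, Chrnb1 and Musk) were higher than in E20 when only E20/p53 libraries 4 to 6 were used. When only libraries 1 to 3 were used, 4 of the 5 synapse genes (Chrna1, Chrnd, Chrng and Musk), 6 of 11 thin filament genes and 4 of 7 scaffold genes were lower, and of the thick filament Myl4 was lower and Mylpf higher. The share of all genes called was 52.9% and 65.1% in these 2 fits, so calls were common at large. In each case the lone block is set against both E20 blocks, and the 2 fits share those E20 libraries.

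Tnnt2 and Mylpf were called higher in E20/p53 with all libraries and without any 1 of the 4 blocks. Tnnt2 was at 6.83 ± 1.54 CPM in E20/p53 and 0.61 ± 0.362 CPM in E20 (SD, n = 6 each; log2 3.57, SE 0.35, adjusted p = 8.6e-07), with log2 2.80 to 4.34 over the 4 fits that leave out a block. Mylpf was at 7.17 ± 5.46 CPM in E20/p53 and 1.21 ± 0.362 CPM in E20 (log2 2.11, SE 0.46, adjusted p = 0.0018), with log2 0.91 to 3.31 over those fits. Ryr1 was at 3.06 ± 1.21 CPM in E20/p53 and 1.59 ± 0.307 CPM in E20 (log2 0.86, SE 0.21, adjusted p = 0.00444), a call lost without E20 libraries 1 to 3 (adjusted p = 0.0564). Des was at 184 ± 202 CPM in E20/p53 and 597 ± 52.5 CPM in E20 (log2 -6.51, SE 2.05, adjusted p = 0.0178), and that mean joins unlike blocks. Without E20/p53 libraries 1 to 3 the log2 difference of Des was -0.70, and without libraries 4 to 6 it was -12.33. The Des call was lost without E20 libraries 1 to 3 (adjusted p = 0.0727) and without E20 libraries 4 to 6 (adjusted p = 0.0899). With the 6 block means, limma called 0 of the 39 and 0 of all 15235 genes, and 1 of the 39 had an unadjusted p under 0.05.

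**Figure D5:**
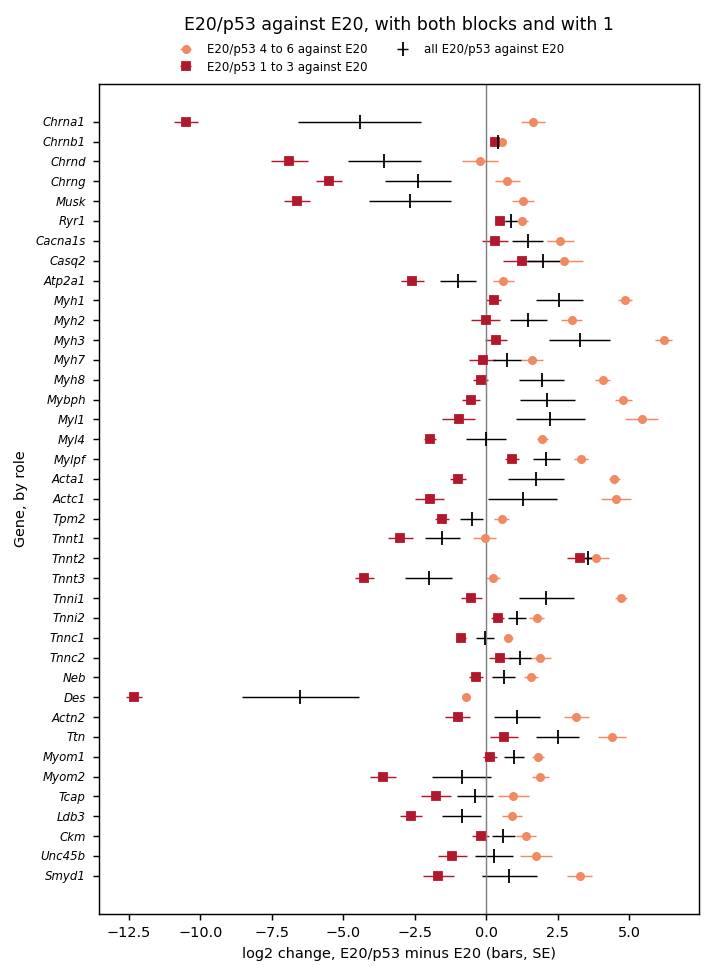
log2 difference between E20/p53 and E20 for each gene (points, with SE bars), with all libraries, with E20/p53 libraries 4 to 6 only and with E20/p53 libraries 1 to 3 only. The points for libraries 4 to 6 lie mostly right of 0, at a median of 1.8, and those for libraries 1 to 3 mostly left of it, at -0.88, with Des and Chrna1 farthest left.

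The comparisons with WT share the 3 WT libraries and also differ in tissue. In p53 against WT, limma called 36 of 39 higher and 1 lower, where 29.3% of all genes were higher, 24.9% lower and 54.2% either, at a median log2 of 5.72 against 0.04 over all genes. All p53 libraries lay above all WT libraries for 38 genes and below for 1, against 43.2% and 38.9% of all genes. Leaving aside the 6 genes that passed the filter through p53 alone, 31 of 33 were higher and 1 lower. Those 31 held all 5 synapse genes, 3 of 3 coupling, 7 of 7 thick filament, 10 of 11 thin filament and 5 of 6 scaffold genes, and Smyd1. Tpm2 and Tcap were not called. Chrnb1 was at 104 ± 2.39 CPM in p53 and 9.23 ± 1.13 CPM in WT (SD, n = 3 each; log2 3.50, SE 0.14, adjusted p = 1.4e-11). Ryr1 (log2 3.83, SE 0.30, adjusted p = 4.1e-08), Tnnc1 (log2 5.16, SE 0.46, adjusted p = 1.5e-07), Mylpf (log2 6.35, SE 0.66, adjusted p = 8.4e-07) and Neb (log2 5.31, SE 0.55, adjusted p = 8.4e-07) rose. Chrnd, Chrng and Mybph had no read in WT and were at least 998-fold, 845-fold and 685-fold higher in p53. Myom1 was lower, at 3.57 ± 0.645 CPM in p53 and 15.5 ± 0.277 CPM in WT (log2 -2.11, SE 0.49, adjusted p = 0.00195). With block means limma called 0 of the 39 and 1 of all 15235 genes, and 19 of the 39 had an unadjusted p under 0.05.

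In E20 against WT, limma called 9 of 39 higher and 5 lower, shares below those of all genes, of which 29.0% were higher, 26.4% lower and 55.3% either. All E20 libraries lay above all WT libraries for 13 genes and below for 10, against 33.8% and 30.5% of all genes. The median log2 difference was 0.31 (0.28 if genes without reads in a group are placed at their bound) against 0.04 over all genes. The 9 held 4 of the 5 synapse genes and 1 of the 9 thick filament genes. Without E20 libraries 1 to 3 limma called 7 higher and 4 lower with 54.2% of all genes called, and without libraries 4 to 6 it called 9 higher and 6 lower with 56.3% of all genes called. Chrnb1 was at 31.1 ± 5.1 CPM in E20 and 9.23 ± 1.13 CPM in WT (SD, n = 6 and 3; log2 1.74, SE 0.12, adjusted p = 8.1e-09), and Chrnd, with no read in WT, was at least 164-fold higher in E20. Des was at 597 ± 52.5 CPM in E20 and 0.258 ± 0.0626 CPM in WT (log2 10.89, SE 2.52, adjusted p = 0.00161), and Tnnt1 (log2 4.07, SE 0.76, adjusted p = 0.00028) and Tnnc1 (log2 1.61, SE 0.40, adjusted p = 0.0027) were higher too.

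Lower in E20 than in WT were Tnnt2 (log2 -5.40, SE 0.43, adjusted p = 2.9e-08), Myom1 (log2 -3.56, SE 0.43, adjusted p = 3.3e-06), Tnnc2 (log2 -2.08, SE 0.46, adjusted p = 0.00124), Ryr1 (log2 -0.92, SE 0.26, adjusted p = 0.00713) and Tnni2 (log2 -1.38, SE 0.40, adjusted p = 0.0073). Ryr1 lost the call without E20 libraries 1 to 3 (adjusted p = 0.0585). Myl4, the only thick filament gene called (log2 2.13, SE 0.87, adjusted p = 0.0475), lost the call without any 1 library, at adjusted p = 0.104, 0.0827 and 0.13 without WT libraries 1, 2 and 3. Without E20 libraries 1 to 6 in turn it was 0.0588, 0.0757, 0.0692, 0.0532, 0.0629 and 0.0667. With block means 0 were called and 4 had an unadjusted p under 0.05.

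In E20/p53 against WT, limma called 7 of 39 higher and 2 lower, where 26.5% of all genes were higher, 21.6% lower and 48.1% either, at a median log2 of 1.48 (1.46 if genes without reads in a group are placed at their bound) against 0.05 over all genes. All E20/p53 libraries lay above all WT libraries for 3 genes and below for 2, against 26.7% and 23.8% of all genes. Leaving out a block moved the count: 31 were higher and 2 lower without E20/p53 libraries 1 to 3, with 67.6% of all genes called, and 3 were higher and 14 lower without libraries 4 to 6, with 58.3% of all genes called. Leaving out E20/p53 library 1, 2 or 3 gave 15, 13 or 12 higher, leaving out WT library 2 or 3 gave 3 or 4 higher, and leaving out E20/p53 library 6 gave 4 lower. Chrnb1 was at 41.5 ± 3.92 CPM in E20/p53 and 9.23 ± 1.13 CPM in WT (SD, n = 6 and 3; log2 2.16, SE 0.12, adjusted p = 7.6e-10). Casq2 (log2 3.46, SE 0.70, adjusted p = 0.00066) and Tnnc1 (log2 1.56, SE 0.40, adjusted p = 0.0041) were higher, and Myom1 (log2 -2.59, SE 0.43, adjusted p = 0.00011) and Tnnt2 (log2 -1.84, SE 0.43, adjusted p = 0.00231) lower, each also in both fits without a block. With block means limma called 0 of the 39 and 1 of all 15235 genes, and 2 of the 39 had an unadjusted p under 0.05.

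Other muscle genes, 84 in the table and 73 tested, were taken from lists of myogenic regulators, fusion proteins and further contractile, Z-disc, coupling, synapse, metabolic and dystrophin complex genes. Of the 73, limma called 1 higher and 43 lower in E20/p53 against p53, where 12.9% of all genes were higher and 12.9% lower. In E20 against p53 it called 2 higher and 34 lower, where 14.5% were higher and 16.4% lower. In E20/p53 against E20 it called 12 higher and 16 lower, where 23.0% were higher and 19.6% lower, so the lower share was near that of all genes. Against WT it called 54 higher and 3 lower in p53 (all genes 29.3% and 24.9%), 28 higher and 6 lower in E20 (29.0% and 26.4%), and 20 higher and 4 lower in E20/p53 (26.5% and 21.6%). The 20 higher are near the share of all genes. These fits share the p53, E20, E20/p53 and WT libraries.

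Of the regulators, Myod1 and Myog encode the factors that commit myoblasts and start their differentiation, and Mymk encodes the membrane protein that fuses them. Myod1 averaged 9.46 ± 0.785 CPM in E20/p53 libraries 4 to 6, 0.0844 and 0.157 CPM in the E20 blocks and 153 ± 3.84 CPM in p53, with no read in WT. Myog averaged 8.87 ± 0.815 CPM in E20/p53 libraries 4 to 6 and 119 ± 6.42 CPM in p53, and Mymk 5.04 ± 1.25 CPM in E20/p53 libraries 4 to 6 and 71.8 ± 2.93 CPM in p53 (SD, n = 3 each). In E20 neither exceeded 0.467 CPM. The 5 fusion genes differed among themselves: Mymk, Mymx and Jam2 were lower in E20 than in p53, and the 5 together summed to 389 to 427 and 317 to 350 CPM in the E20 blocks, against 498 to 529 CPM in p53.

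Of the earlier regulators, Pax7 and Myf5 were present in E20. Pax7 marks satellite cells, the stem cells of muscle, and Myf5 marks early myoblasts. Pax7 averaged 60.4 ± 3.89 CPM in E20 libraries 1 to 3, 37.5 ± 3.26 CPM in E20 libraries 4 to 6 and 43.6 ± 4.44 CPM in p53, against 0.0207 CPM in WT. Myf5 averaged 86.8 ± 2.91 and 46.1 ± 0.767 CPM in the E20 blocks, 76.9 ± 0.763 CPM in E20/p53 libraries 4 to 6 and 60.2 ± 6.97 CPM in p53. In E20/p53 libraries 1 to 3 Myf5 and Myod1 had no read and Pax7 averaged 0.368 CPM. Pax3, on the same list, averaged 49.2 CPM in E20 and 42.6 CPM in WT and was not called between them. Another listed regulator, Myf6, was called higher in E20 than in p53 and than in WT, so the regulators did not all follow 1 order. Of the 8 markers of satellite cells and myoblasts, 2 averaged at least 1 CPM in E20/p53 libraries 1 to 3, 7 in E20/p53 libraries 4 to 6, 6 in each E20 block, 7 in p53 and 3 in WT. Their sums were 129 to 134 CPM in E20/p53 libraries 1 to 3, 645 to 665 in E20/p53 libraries 4 to 6, 829 to 853 in E20 libraries 1 to 3, 962 to 981 in E20 libraries 4 to 6, 1309 to 1329 in p53 and 558 to 575 in WT, and their part in the results was not tested. In WT, Pax7 averaged 0.0207 CPM, Cdh15 0.02 CPM and Pax3 42.6 CPM, and Myf5 and Myod1 had no read. The WT sum thus came mostly from the other listed markers, Itga7, Vcam1 and Msc. Pax7 and Myf5 were lower in E20 libraries 4 to 6 than in libraries 1 to 3, although the sum was higher there.

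Rapsn and Lrp4, partners of the receptor, were present in E20 as well. Rapsn encodes rapsyn, which anchors the receptor, Lrp4 the receptor for nerve agrin, and Dok7 the activator of MuSK. Rapsn averaged 49.5 ± 5.23 CPM in E20/p53 libraries 4 to 6, 52.1 to 54.6 CPM in E20 libraries 1 to 3, 53 ± 0.177 CPM in E20 libraries 4 to 6 and 82.7 ± 6.49 CPM in p53, against 2.12 ± 0.727 CPM in WT. Lrp4 averaged 65.4 ± 4.16 CPM in E20/p53 libraries 4 to 6, 54.9 ± 5.49 and 21 ± 0.265 CPM in the E20 blocks and 72.7 ± 4.35 CPM in p53. Dok7, by contrast, was at 0.11 and 0.0455 CPM in the E20 blocks, against 10.5 ± 1.29 CPM in p53. Agrn, which encodes agrin, ran the other way, at 163, 147 and 114 CPM in E20/p53, E20 and p53 and 461 CPM in WT. limma called Agrn lower than in WT in each tongue group.

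Markers of other muscle types were checked because several of the 39 genes are shared with heart or smooth muscle. Of 11 cardiac markers, 2 averaged at least 1 CPM in p53, and the cardiac myosin Myh6 did not exceed 0.326 CPM in any p53 library and Myl7 had no read in any library. The cardiac list summed to 36.3 to 40.6 CPM in E20/p53 libraries 4 to 6, 26.2 to 33.2 CPM in E20 libraries 1 to 3, 23.6 to 24.7 CPM in E20 libraries 4 to 6, 27.6 to 32 CPM in p53 and 4.48 to 4.75 CPM in WT. Nkx2-5, a cardiac regulator, carried most of it, at 36.3 ± 2.89 CPM in E20/p53 libraries 4 to 6, 23.2 to 30.8 and 19.9 to 21.5 CPM in the E20 blocks and 27.7 ± 2.26 CPM in p53. The smooth muscle list summed to 545 to 562 CPM in E20/p53 libraries 1 to 3 and to between 1340 and 5673 CPM in the other tongue blocks, against 1017 to 1087 CPM in WT, most of it Acta2. Myh11, the defining smooth muscle myosin, averaged at most 0.802 CPM in any block.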

How the data were processed

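The deposited table holds log2 values, and 100% of them return whole reads within 0.001 when read as log2 of 1 more than the reads, divided by a scaled total per library. Per the submitters' processing notes, bcl2fastq 1.8.4, Trimmomatic, featureCounts and the build mm10 were used, and per the labels libraries were made with TruSeq Stranded mRNA LT. The sources used here do not give the aligner, annotation, strand setting or scaling. limma 3.58.1 in R 4.3.3 was used with the mean-variance trend, a mean per group and all 18 libraries, on 15235 genes with at least 0.635 CPM in 3 libraries (10 reads at the median depth) and 15 reads in total. p-values were Benjamini-Hochberg adjusted over these genes and called under 0.05, and the code was tested on simulated data. CPM are per scaled total, 0.9391 to 1.1178 times the reads. Positions and exon lengths, over all exons annotated for a gene, are from GENCODE M21, and promoter sequences from RefSeq.

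The members and lists were chosen with earlier results of these data known. Test values are printed, per comparison, for up to 5 higher and 5 lower called genes by adjusted p without overlap between groups, and for 1 gene of a role that has none. They are left out for Ckm, which passed the filter through p53 alone. Roles other than synapse are coupling, thick filament, thin filament, scaffold, and enzyme and chaperone. Floors are 3 reads over a group, and no fold is given against a group with 1 to 3 reads. No 2 libraries agreed within sampling noise.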

Additional observations from a re-analysis of the deposited data

Results flagged for a closer look

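Of 76 sets of 6 libraries examined, a gene in E20 or in E20/p53, 1 stood out. Mylpf in E20 library 3 was at 0.545 CPM, and the other 5 E20 libraries held 1.11 to 1.51 CPM. For 6 values of 1 population, chance alone flags about 1 in 20 sets. Each set here joins 2 blocks that can stand apart, so that rate need not hold.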

How the results depend on the processing

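The 41 named tests include those of Ckm, whose values are left out above because it passed the filter through p53 alone. None of the 41 turned its direction. The balance of counts did in E20/p53 against E20, whose median log2 was 0.81 with all libraries and -0.88 without E20/p53 libraries 4 to 6, and in E20/p53 against WT, at 1.48 and -0.47. With the 6 block means, 0 of the 39 genes were called in every comparison and direction, and all 41 named tests lost their call. Nearly all other genes lost theirs too. Of all 15235 genes, that fit called 0 in each comparison between tongue groups. Against WT it called 1 in p53, 8 in E20 and 1 in E20/p53. In E20/p53 against E20 the higher count was 7 with the 2 groups alone, 5 without E20 libraries 1 to 3, 7 without E20 libraries 4 to 6, 31 without E20/p53 libraries 1 to 3 and 4 without E20/p53 libraries 4 to 6. The lower count there was 0 with the 2 groups alone, 0 without E20 libraries 4 to 6, 1 without E20/p53 libraries 1 to 3 and 17 without E20/p53 libraries 4 to 6. In E20 against WT, voom gave 5 higher, and the 2 groups alone 9 lower. In E20/p53 against WT, voom gave 4 higher and 4 lower, the 2 groups alone 3 higher, the data without E20/p53 libraries 1 to 3 gave 31 higher, and those without libraries 4 to 6 gave 3 higher and 14 lower. Same-numbered libraries of different groups correlated at -0.054 to 0.074 after each gene was centred on its group mean. That centring leaves the block difference in E20 and E20/p53, so it could not show whether their replicate numbers pair. Between WT and p53, which have 1 block each, the correlations were -0.027 to 0.063. With a replicate block the lower counts were 6 in E20/p53 against E20, 10 in E20 against WT and 4 in E20/p53 against WT, and Myl4 lost its call. Shares of all genes called are not given here for voom, the 2 groups alone, the replicate block or the fits without 1 library.

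With 1 library left out, higher and lower counts ranged over 10 to 16 and 1 to 6 in E20/p53 against E20, 0 and 28 to 38 in E20/p53 against p53, and 0 and 28 to 33 in E20 against p53. They ranged over 33 to 34 and 1 in p53 against WT, 7 to 9 and 5 in E20 against WT, and 3 to 15 and 2 to 4 in E20/p53 against WT. Median-of-ratios scaling kept all 41 named calls, the filter of 30 reads all 38 that it left, and log2 of CPM plus 1 and no filter 40 of 41 each.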
